A study of Arabidopsis thaliana with 12 samples.

Results

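The HSP90 family of Arabidopsis thaliana was described in rosette leaves of the mutant atcyp18-2 and of wild type (WT), with and without heat. Its 7 genes were chosen by locus identifier: HSP90.1 (AT5G52640), HSP90.2 (AT5G56030), HSP90.3 (AT5G56010) and HSP90.4 (AT5G56000) of the cytosol, HSP90.5 (AT2G04030) of the plastid, HSP90.6 (AT3G07770) of the mitochondrion and HSP90.7 (AT4G24190, also called SHEPHERD) of the endoplasmic reticulum (ER). All 7 were found among the 23174 genes of the deposited count table, and all 7 were among the 16636 genes that passed the filter on low counts. HSP90 proteins are ATP-driven chaperones that act as dimers on proteins which are already partly folded, among them kinases, hormone receptors, immune receptors and heat shock factors. In the cytosol they work with HSP70 and a set of co-chaperones, and they hold heat shock factors inactive until unfolded proteins draw them away. The organelle forms serve protein import and folding in their own compartments, and the ER form is needed for the folding of the CLAVATA proteins of the shoot meristem.

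RNA was sequenced from rosette leaves of the ecotype Col-0. Plants had grown for 3 weeks at 23 °C, and the heated ones then spent 1 h at 47 °C. The 4 groups were heated atcyp18-2, atcyp18-2 without heat, heated WT and WT without heat, with 3 libraries each. The labels do not say when the controls were harvested and name no plants kept at 23 °C for that hour, so heat and the passing of the hour cannot be told apart. They do not say either that libraries came from separate plants, so p-values measure a spread between libraries that may be technical. No source used here describes the mutant allele. The transcript of AtCYP18-2, a cyclophilin-type prolyl isomerase, was at 2.14, 4.13 and 2.83 CPM (counts scaled to the TMM-adjusted library size) in heated atcyp18-2. It was at 7.48, 7.36 and 5.52 CPM in heated WT. Without heat it was at 1.05, 0.951 and 1.04 CPM in atcyp18-2 and at 6.29, 6.02 and 5.60 CPM in WT. The transcript was thus lower in every mutant library but still counted in each.

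Libraries held 9075387 to 12493977 reads, of which 59.9% to 70.2% came from chloroplast genes and 2572364 to 4348395 reads from nuclear genes. All 4 leaf mesophyll markers were fitted, and their summed level lay between 10576 and 18521 CPM over the 12 libraries. The 4 flower markers summed to at most 1.65 CPM and the 1 seed marker in the table to at most 0.335 CPM, and none of either passed the filter on low counts. Both root markers in the table together summed to 10.03 to 16.7 CPM in heated atcyp18-2 and 20.8 to 32.3 CPM in its controls, and to 9.22 to 20.8 CPM in heated WT and 22.7 to 53.5 CPM in its controls. The 4 guard cell markers summed to 12.8 to 17.0 CPM in heated atcyp18-2 and 16.1 to 18.1 CPM in its controls, and to 10.8 to 11.6 CPM in heated WT and 15.5 to 17.6 CPM in its controls. Their part in the HSP90 values was not tested. In whole leaves, fewer cells of a type and less RNA per cell cannot be told apart.

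After heat, 6 of the 7 HSP90 transcripts were higher in both genotypes. All 4 cytosolic genes, the plastid gene and the mitochondrial gene rose, and the ER gene HSP90.7 was not called. In atcyp18-2, 16.9% of the 16636 genes tested were called higher after heat and 15.3% lower, and 6 of 7 HSP90 genes were called higher and 0 lower. In WT, 13.2% of all genes were called higher and 10.3% lower, again beside 6 of 7 and 0 of 7 HSP90 genes. With library totals in place of TMM scaling, the log2 fold changes of the 6 genes ran from 1.12 to 10.93 in atcyp18-2 and from 0.48 to 10.95 in WT, and the median of all genes moved to −0.76 in atcyp18-2 and −0.77 in WT. With TMM scaling, the median log2 fold change of the family was 3.63 in atcyp18-2 and 3.08 in WT, against medians of −0.0065 and −0.024 over all genes tested. A gene was called when its p in edgeR's quasi-likelihood test, adjusted by Benjamini and Hochberg's method over all genes tested, was below 0.05.

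Reads of the family made up 1.93%, 3.08% and 1.99% of nuclear reads in heated atcyp18-2, against 0.180%, 0.119% and 0.144% in its controls. In WT they made up 2.07%, 2.34% and 2.73% after heat, against 0.178%, 0.183% and 0.120% without it. The groups with and without heat did not overlap in either genotype. The 4 cytosolic genes held 94.4% to 96.0% of the family's reads in the heated libraries and 54.3% to 68.2% in the controls.

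HSP90.1 is the heat-inducible cytosolic HSP90, and it went up by more than any other member. It was at 2863, 5739 and 3169 CPM in heated atcyp18-2, against 1.43, 0.679 and 1.65 CPM in its controls. In WT it was at 2803, 3193 and 4039 CPM after heat, against 1.62, 0.602 and 0.800 CPM without heat. Every heated library was far above every control, and the mutant and WT ranges overlapped both with and without heat. For this gene and those below, the share of all genes whose heated and control libraries do not overlap was not computed. The log2 fold change on heat was 11.62 ± 0.53 (SE; adjusted p = 4.42e-09) in atcyp18-2 and 11.68 ± 0.53 (adjusted p = 5.45e-09) in WT, which are 3151-fold and 3274-fold. These folds rest on few control reads, 45 over the 3 mutant libraries and 40 over the 3 WT libraries, and their 95% confidence intervals ran from 10.48 to 12.77 in atcyp18-2 and from 10.53 to 12.83 in WT on the log2 scale.

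The stretch of DNA shown next lies upstream of HSP90.1 and holds the letters of the heat shock element, the binding sequence of heat shock factors. Sequences here are RefSeq's, assembly TAIR10.1, found by locus identifier. The deposited counts name no build. Capitals mark heat shock element pairs (GAANNTTC or TTCNNGAA, each its own reverse complement), and the second run of capitals is a pair of overlapping matches that make up a triple (GAANNTTCNNGAA or its reverse complement TTCNNGAANNTTC).
HSP90.1, chr5:21352197-21352282, + strand: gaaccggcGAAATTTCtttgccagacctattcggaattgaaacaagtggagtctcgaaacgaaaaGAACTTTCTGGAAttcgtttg
The matches begin 352, 295 and 290 bases before the first coding base. Within 500 bases before the first coding base, a pair was found in 33.9% of 27443 protein-coding genes and in 3 of 7 HSP90 genes, HSP90.1, HSP90.5 and HSP90.6. A triple was found there in 1.20% of genes and in 1 of 7 HSP90 genes, HSP90.1. In HSP90.5 and HSP90.6 the pair began 150 and 123 bases before the first coding base, after the annotated gene start. In the narrower window of 250 bases before to 50 after the annotated gene start, 19.3% of genes and 0 of 7 HSP90 genes held a pair, and 0.481% of genes and 0 of 7 held a triple. RefSeq annotates no untranslated bases for HSP90.1, so its annotated start is its first coding base, and the wider window was chosen after the narrower one had given no HSP90 gene. A match of letters is a description and not a bound site.

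HSP90.2 is a cytosolic HSP90 that leaves express without stress. It was at 3369, 3947 and 3193 CPM in heated atcyp18-2, against 141, 125 and 148 CPM in its controls. In WT it was at 3546, 3953 and 3375 CPM after heat, against 122, 134 and 125 CPM without heat. The replicates lay close together, no heated library came near a control, and the genotypes overlapped. The log2 fold change was 4.67 ± 0.19 (25.4-fold; adjusted p = 1.74e-09) in atcyp18-2 and 4.83 ± 0.19 (28.5-fold; adjusted p = 1.29e-09) in WT.

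HSP90.3, its closest copy, was at 1497, 1748 and 1538 CPM in heated atcyp18-2, against 119.5, 96.3 and 121 CPM in its controls. In WT it was at 1873, 1948 and 1699 CPM after heat, against 107, 112 and 92.5 CPM without heat. Heated and control libraries were far apart in both genotypes, and the mutant and WT ranges overlapped. The log2 fold change was 3.83 ± 0.18 (14.2-fold; adjusted p = 5.46e-09) in atcyp18-2 and 4.15 ± 0.18 (17.7-fold; adjusted p = 3.80e-09) in WT.

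HSP90.4 was the least abundant of these near-identical copies, so its values are the most open to reads of the other copies. It was at 80.4, 122 and 96.9 CPM in heated atcyp18-2, against 18.4, 14.9 and 17.99 CPM in its controls. WT leaves had 117, 111 and 113 CPM after heat, against 17.5, 17.5 and 13.7 CPM without heat. Every heated library again exceeded every control. On the log2 scale the fold change was 2.54 ± 0.18 (5.84-fold; adjusted p = 3.11e-07) in atcyp18-2 and 2.81 ± 0.18 (6.998-fold; adjusted p = 1.60e-07) in WT.

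**Figure D1:**
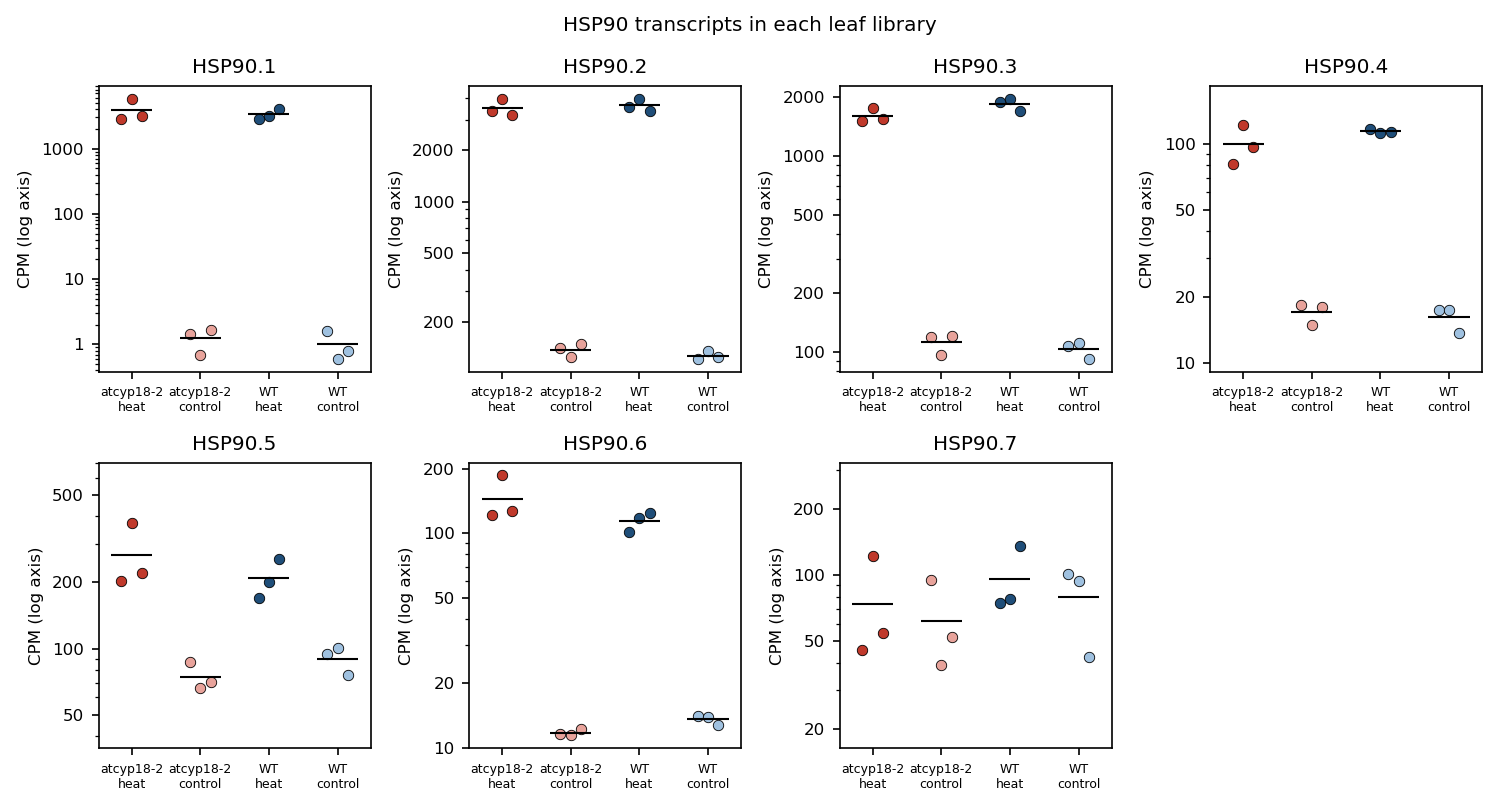
CPM of each HSP90 gene in every library on a log axis, by group, with the group mean. HSP90.1 to HSP90.6 are higher in all 6 heated libraries than in all 6 controls, while HSP90.7 spans 45.6 to 136 CPM with heat and 38.97 to 100.8 CPM without. The share of all genes separated in this way was not computed.

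HSP90.2, HSP90.3 and HSP90.4 are near-identical copies that share some of their sequence. They lie close together on chromosome 5, where HSP90.4 on the − strand is directly followed by HSP90.3 on the + strand, and 1 protein-coding gene, AT5G56020, separates HSP90.3 from HSP90.2. Over the 2100 coding bases of their first transcripts the trio differed at 152 positions, 7.24%. The coding bases of HSP90.2 and HSP90.3 were 95.7% identical, those of HSP90.3 and HSP90.4 95.4%, and those of HSP90.2 and HSP90.4 94.3%. The counted transcripts of HSP90.2 and HSP90.3 shared an unbroken run of 238 identical bases. Of all stretches of 50 bases in the counted transcripts, 22.8% in HSP90.2, 23.9% in HSP90.3 and 18.7% in HSP90.4 also occurred in another HSP90 gene, and 0% in each of the others. Of stretches of 100 bases, 8.98% in HSP90.2, 10.8% in HSP90.3 and 5.36% in HSP90.4 did so, so most of each copy was unique to it among the HSP90 genes. How the authors' counting treated reads that match several copies is not given in the sources used here, so the values of these copies are uncertain relative to one another. HSP90.4 averaged 99.8 CPM in heated atcyp18-2 and 114 CPM in heated WT, where HSP90.2 averaged 3503 and 3625 CPM. Reads of a larger copy assigned to HSP90.4 could therefore make up part or all of its rise, which was not tested. The 60 coding bases in which the trio differed most are given below, with the 12 differing positions in capitals.
HSP90.2, chr5:22689098-22689157, + strand: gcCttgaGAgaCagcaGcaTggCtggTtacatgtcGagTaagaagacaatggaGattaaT
HSP90.3, chr5:22683576-22683635, + strand: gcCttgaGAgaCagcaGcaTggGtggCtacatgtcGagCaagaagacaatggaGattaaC
HSP90.4, chr5:22677878-22677937, − strand: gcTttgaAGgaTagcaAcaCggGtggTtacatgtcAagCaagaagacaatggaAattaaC

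Summed into 1 feature, which is free of any exchange of reads among them, the trio rose by 4.28 ± 0.19 on the log2 scale in atcyp18-2 (adjusted p = 3.62e-09) and by 4.50 ± 0.19 in WT (adjusted p = 2.93e-09; edgeR). HSP90.1 was 78.9% to 79.6% identical to the trio in its coding bases, and its counted transcript shared no run longer than 29 bases with theirs. The counted transcripts encode proteins of 700 residues for HSP90.1, 728 for HSP90.2, and 699 for both HSP90.3 and HSP90.4. The last 30 coding bases show the motif by which cytosolic HSP90 binds the TPR domains of its co-chaperones, MEEVD, and the ER retention signal KDEL of HSP90.7, with the codons of each motif in capitals and the stop codon last.
HSP90.1, chr5:21355118-21355147, + strand: gaagagagcaagATGGAGGAAGTCGACtaa
HSP90.2, chr5:22689404-22689433, + strand: gaaggtagcaagATGGAGGAAGTCGACtaa
HSP90.3, chr5:22683882-22683911, + strand: gaaggtagcaagATGGAGGAAGTTGACtaa
HSP90.4, chr5:22677602-22677631, − strand: gaaggtagcaagATGGAGGAAGTCGACtaa
HSP90.7, chr4:12551902-12551931, − strand: caagaagagaacaccAAGGACGAACTGtag

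The makeup of the cytosolic pool differed between heated and control libraries. Here a gene's reads per kilobase are divided by the sum over the 4 cytosolic genes in the same library, as a description with no test. HSP90.1 made up 45.2% ± 6.89 of that sum in heated atcyp18-2 and 0.529% ± 0.174 in its controls, and 40.6% ± 5.72 in heated WT and 0.475% ± 0.257 in its controls (SD, n = 3 each). HSP90.2 made up 38.3% ± 4.79 in heated atcyp18-2 and 54.1% ± 1.28 in its controls, and 40.2% ± 3.80 in heated WT and 54.0% ± 2.47 in its controls (SD, n = 3 each). HSP90.1, nearly absent without heat, thus came to a share that overlapped that of HSP90.2 in both heated groups.

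HSP90.3 had a share of 15.5% ± 2.17 in heated atcyp18-2 and 39.01% ± 1.01 in its controls, and 18.1% ± 1.94 in heated WT and 39.004% ± 1.73 in its controls. HSP90.4 had 1.02% ± 0.0937 in heated atcyp18-2 and 6.35% ± 0.194 in its controls, and 1.19% ± 0.105 in heated WT and 6.50% ± 0.603 in its controls (SD, n = 3 each). For each of the 4 genes the heated libraries did not overlap the controls of the same genotype. The shares of HSP90.2, HSP90.3 and HSP90.4 were lower after heat although all 3 transcripts rose. These shares depend on the annotated length of each transcript and on how reads of the near-identical copies were assigned. With coding lengths in place of transcript lengths, chosen after seeing the data, HSP90.1 had 42.6% and HSP90.2 38.1% in heated atcyp18-2, and HSP90.1 had 37.9% and HSP90.2 39.7% in heated WT, where their order turned.

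**Figure D2:**
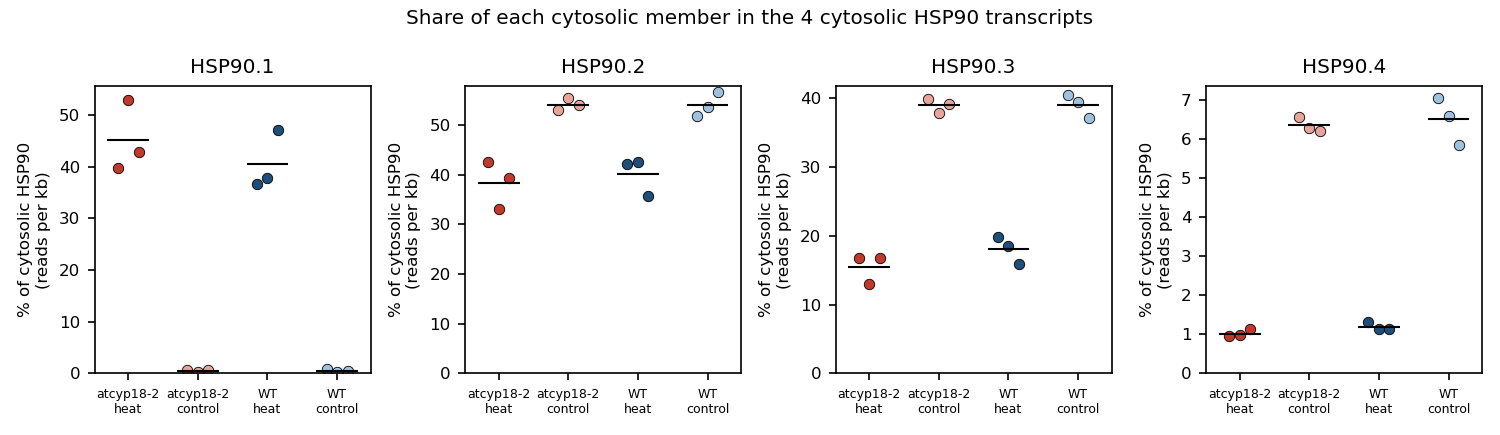
Share of each cytosolic HSP90 gene in the reads per kilobase of the 4 cytosolic genes, in percent, for each library by group. The HSP90.1 share is 36.7% to 53.0% in the heated libraries and under 1% in the controls.

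HSP90.5, the plastid HSP90, rose less than the cytosolic genes. It was at 202, 374 and 222 CPM in heated atcyp18-2, against 87.1, 66.0 and 70.2 CPM in its controls. In WT it was at 171, 201 and 256 CPM after heat, against 94.1, 100.6 and 75.5 CPM without heat. All heated libraries lay above all controls, and the second library of heated atcyp18-2 was the highest. The log2 fold change was 1.84 ± 0.25 (3.58-fold; adjusted p = 0.000108) in atcyp18-2 and 1.22 ± 0.24 (2.32-fold; adjusted p = 0.00301) in WT. With library totals in place of TMM scaling the WT call was lost, at a log2 fold change of 0.48 (adjusted p = 0.312).

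HSP90.6, the mitochondrial HSP90, was at 122, 187 and 128 CPM in heated atcyp18-2, against 11.6, 11.4 and 12.3 CPM in its controls. WT libraries had 102, 118 and 125 CPM after heat, against 14.1, 13.9 and 12.7 CPM without heat. Heated libraries were well above controls in both genotypes. Without heat the mutant libraries all lay below the WT libraries, and after heat the genotypes overlapped. The difference without heat was not called, and the share of all genes separated in this way was not computed. On the log2 scale the fold change was 3.63 ± 0.19 (12.4-fold; adjusted p = 1.51e-08) in atcyp18-2 and 3.08 ± 0.18 (8.47-fold; adjusted p = 6.49e-08) in WT.

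HSP90.7, the ER HSP90, was at 45.6, 123 and 54.6 CPM in heated atcyp18-2, against 95.4, 38.97 and 52.1 CPM in its controls. In WT it was at 74.8, 78.2 and 136 CPM after heat, against 100.8, 94.4 and 42.6 CPM without heat. The ranges overlapped in both genotypes, with high and low libraries in every group. The log2 fold change was 0.26 ± 0.44 (95% confidence interval −0.69 to 1.21; adjusted p = 0.693) in atcyp18-2 and 0.28 ± 0.44 (−0.66 to 1.23; adjusted p = 0.683) in WT. These intervals include both a fall and a doubling, so neither was excluded at this spread. Leaving out the second library of heated atcyp18-2 turned the mutant value to −0.31, and leaving out the third library of heated WT or of WT without heat turned the WT value to −0.048 or −0.018.

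HSP90.7 was the only HSP90 gene whose window from 250 bases before to 50 after the annotated start held an ER stress element, the sequence through which unfolded proteins in the ER raise transcription (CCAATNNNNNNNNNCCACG or its reverse complement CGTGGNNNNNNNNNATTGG). It was found in 0.397% of 27443 protein-coding genes and began 22 bases before the annotated start of HSP90.7. Capitals mark it.
HSP90.7, chr4:12556059-12556092, − strand: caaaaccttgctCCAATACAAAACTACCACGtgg

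**Figure D3:**
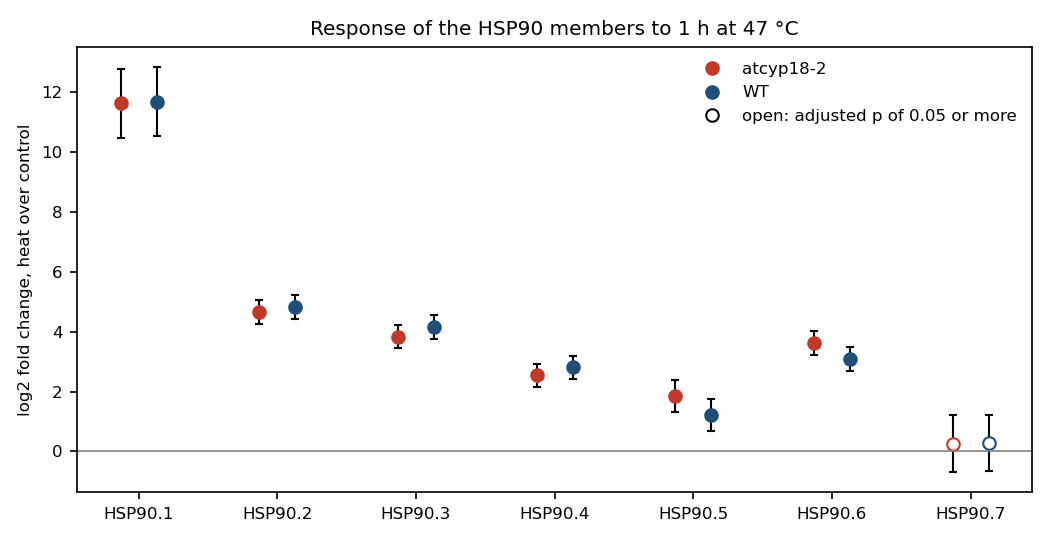
log2 fold change on heat of each HSP90 gene in atcyp18-2 and in WT, with 95% confidence intervals. The values run from 11.62 and 11.68 for HSP90.1 to 0.26 and 0.28 for HSP90.7, and only the intervals of HSP90.7 include 0.

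Compared per kilobase of the counted transcript, the order of the 7 genes differed between heated and control leaves. The length of HSP90.1 holds no untranslated bases while those of the other 6 do, so its place in the order depends on that annotation. In heated atcyp18-2, HSP90.1 averaged 1866 ± 751 CPM per kilobase and HSP90.2 1512 ± 170, followed by HSP90.3 at 610 ± 51.6, HSP90.5 at 94.8 ± 33.5, HSP90.6 at 50.1 ± 12.3, HSP90.4 at 40.8 ± 8.57 and HSP90.7 at 24.5 ± 13.9 (SD, n = 3 each). In atcyp18-2 without heat the order was HSP90.2 at 59.5 ± 5.11 CPM per kilobase, HSP90.3 at 43.0 ± 5.35, HSP90.5 at 26.5 ± 3.98, HSP90.7 at 20.5 ± 9.74, HSP90.4 at 6.99 ± 0.776, HSP90.6 at 4.04 ± 0.153 and HSP90.1 at 0.596 ± 0.242 (SD, n = 3 each). HSP90.1 was thus last without heat and shared the top with HSP90.2 after it. Among neighbours in these orders, HSP90.1 and HSP90.2, HSP90.6 and HSP90.4, and HSP90.4 and HSP90.7 overlapped in heated atcyp18-2, and HSP90.5 and HSP90.7 in its controls.

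In heated WT the order was HSP90.1 at 1590 ± 300 CPM per kilobase, HSP90.2 at 1565 ± 128, HSP90.3 at 704 ± 48.9, HSP90.5 at 74.6 ± 15.5, HSP90.4 at 46.5 ± 1.15, HSP90.6 at 39.5 ± 4.13 and HSP90.7 at 31.8 ± 11.4 (SD, n = 3 each). In WT without heat it was HSP90.2 at 54.9 ± 2.83 CPM per kilobase, HSP90.3 at 39.7 ± 3.83, HSP90.5 at 32.1 ± 4.65, HSP90.7 at 26.2 ± 10.5, HSP90.4 at 6.62 ± 0.896, HSP90.6 at 4.66 ± 0.251 and HSP90.1 at 0.479 ± 0.257 (SD, n = 3 each). Both genotypes had the same order without heat, and after heat they differed only in the places of HSP90.4 and HSP90.6. Neighbours that overlapped were HSP90.1 and HSP90.2 and also HSP90.6 and HSP90.7 in heated WT, and HSP90.3 and HSP90.5 and also HSP90.5 and HSP90.7 in its controls.

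The mutant and WT did not differ detectably in any HSP90 transcript. In atcyp18-2 against WT after heat, 0.222% of the 16636 genes were called by edgeR, and 0 of 7 HSP90 genes, of which 0 had an unadjusted p below 0.05, beside 1753 of all genes. Without heat 0.0240% of all genes were called and 0 of 7 HSP90 genes, again with 0 at an unadjusted p below 0.05, beside 396 of all genes. For the heat response of atcyp18-2 minus that of WT, 0% of all genes and 0 of 7 HSP90 genes were called, and 1 of 7, HSP90.6, had an unadjusted p below 0.05, beside 912 of all genes. DESeq2 called 0 of 7 HSP90 genes in each of these 3 comparisons.

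After heat, the log2 difference between atcyp18-2 and WT was 0.23 ± 0.33 for HSP90.1, −0.05 ± 0.16 for HSP90.2, −0.21 ± 0.16 for HSP90.3 and −0.19 ± 0.17 for HSP90.4. It was 0.35 ± 0.24 for HSP90.5, 0.34 ± 0.17 for HSP90.6 and −0.38 ± 0.44 for HSP90.7 (SE). The HSP90.6 value had a 95% confidence interval of −0.02 to 0.70 and an adjusted p of 0.506. The trio summed differed by −0.10 ± 0.16. The standard error was smallest for the trio and HSP90.6 and largest for HSP90.7.

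Without heat, the log2 differences between atcyp18-2 and WT ran from −0.35 ± 0.44 for HSP90.7 to 0.29 ± 0.47 for HSP90.1, and the smallest unadjusted p among the 7 genes was 0.260. HSP90.6, whose mutant libraries all lay below the WT libraries, was not called and differed by −0.21 ± 0.18. The heat response in atcyp18-2 minus that in WT was 0.55 ± 0.24 on the log2 scale for HSP90.6 (95% confidence interval 0.02 to 1.07; unadjusted p = 0.0419, adjusted p = 0.902; edgeR). It was 0.62 ± 0.34 for HSP90.5 (−0.11 to 1.36), −0.06 ± 0.55 for HSP90.1 (−1.25 to 1.14) and −0.02 ± 0.62 for HSP90.7 (−1.37 to 1.32). For HSP90.2, HSP90.3 and HSP90.4 it was −0.17 ± 0.23, −0.32 ± 0.23 and −0.26 ± 0.24, and for the trio summed −0.22 ± 0.23. The point estimates were above 0 for the plastid and mitochondrial genes and below 0 for the near-identical cytosolic copies, while the signs of HSP90.1 and HSP90.7 turned when single libraries were left out, and that of HSP90.7 also with library totals. None passed the adjusted threshold.

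In the authors' deposited table of genes changed by heat in atcyp18-2, with 1649 entries, 6 HSP90 genes were listed, HSP90.7 being the one left out. Their deposited table for heat in WT, with 1020 entries, listed 5 and left out HSP90.5 and HSP90.7. The log2 fold changes of HSP90.1 in the authors' deposited tables were 11.61 in atcyp18-2 and 11.70 in WT. Neither of the authors' deposited tables of atcyp18-2 against WT listed an HSP90 gene, at 4 entries after heat and 7 without heat.

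Libraries of the same group differed from each other along a first principal component, to which 53.9% of the within-group variance of all fitted genes belonged. The libraries on its negative side were the second of heated atcyp18-2, the first of atcyp18-2 without heat, the third of heated WT, and the first and second of WT without heat. Chloroplast genes took 59.9% to 62.6% of their reads, against 63.7% to 70.2% in the other 7. HSP90.7 followed this component with r = −0.98 over the 12 libraries and HSP90.5 with r = −0.93. The others had r = −0.75 (HSP90.4), −0.73 (HSP90.6), −0.62 (HSP90.1), −0.50 (HSP90.3) and −0.31 (HSP90.2). These r are of deviations from the group means and are a description, since the component was computed from genes that include them. No r over all genes was set beside them. HSP90.7 was on average 0.59 above its group mean on the log2 scale in the 5 negative libraries and 0.42 below it in the other 7. The within-group SD on the log2 scale was 0.65 for HSP90.7, 0.52 for HSP90.1, 0.32 for HSP90.5 and 0.12 for HSP90.2.

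With the sign of this component as a term in the fit, the heat response of HSP90.7 was 0.23 (adjusted p = 0.109) in atcyp18-2 and 0.68 (adjusted p = 0.000100) in WT on the log2 scale, which would make it the seventh gene called in WT. In that fit HSP90.7 was also called lower in heated atcyp18-2 than in heated WT, at −0.44 (adjusted p = 0.0224). Of all genes, that fit called 1232 between the heated genotypes, against 37 without the term. On heat in WT it called 7005 of all genes, against 3911. The term was taken from these libraries, so its calls are no independent evidence.

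**Figure D4:**
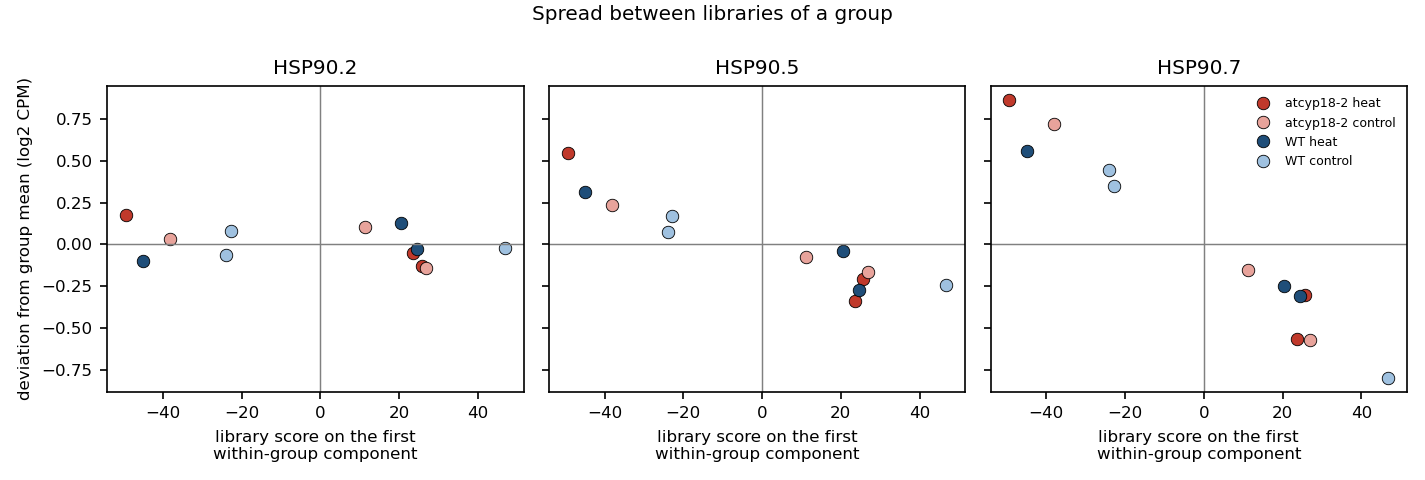
Deviation of HSP90.2, HSP90.5 and HSP90.7 from their group means (log2 CPM) against the library's score on the main within-group component, over 12 libraries. HSP90.7 falls steeply along the score (r = −0.98), while HSP90.2 stays near 0 (r = −0.31).

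Over the 12 libraries the log2 CPM of the 4 cytosolic genes were correlated pairwise with r of at least 0.99, reaching 0.999 for HSP90.2 and HSP90.3. With these 4 genes HSP90.6 had r of 0.987 to 0.994 and HSP90.5 had r of 0.928 to 0.941, whereas HSP90.7 had r of 0.24 to 0.47 with the other 6. These values mostly reflect the split into heated and control libraries and are descriptions. After group means were removed, r was 0.93 between HSP90.5 and HSP90.7. The gene most like HSP90.1 over the 12 libraries was the chaperone regulator BAG6 (AT2G46240, r = 0.999). Those most like HSP90.2 were Fes1A (AT3G09350), a cytosolic HSP70-associated protein, the disaggregase HSP101 (AT1G74310) and an HSP70 (AT3G12580), with r of 0.999 or above. HSP90.3 was most like HSP90.2 (r = 0.999), and HSP90.4 was most like HSP90.3 (r = 0.996). HSP90.6 was most like AT5G37340, FIB (AT4G04020) and the mitochondrial disaggregase CLPB4 (AT2G25140), each with r = 0.998. HSP90.5 was most like AT5G59830 (r = 0.993), and no gene exceeded r = 0.963 with HSP90.7, which AT1G61100 reached.

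Of 16 cytosolic co-chaperones fitted, 9 were called higher and 0 lower in each genotype, against 16.9% of all genes higher and 15.3% lower in atcyp18-2 and 13.2% higher and 10.3% lower in WT. Their median log2 fold change was 2.25 in atcyp18-2 and 1.53 in WT. ROF2 (FKBP65), a prolyl isomerase that binds HSP90, rose by 10.76 ± 0.48 in atcyp18-2 (adjusted p = 3.75e-09) and 10.52 ± 0.47 in WT (adjusted p = 5.16e-09). ROF2 averaged 1.22 CPM in the atcyp18-2 controls and 1.18 CPM in the WT controls, so the size of its rise rests on few control reads. HOP3, which links HSP70 to HSP90, rose by 11.01 ± 0.60 in atcyp18-2 and 10.30 ± 0.58 in WT, and AHA1, which stimulates the HSP90 ATPase, by 4.94 ± 0.22 in atcyp18-2 and 4.50 ± 0.21 in WT. SGT1B, which works with HSP90 on immune receptors, was not called, at 0.49 ± 0.28 in atcyp18-2 (adjusted p = 0.209) and 0.26 ± 0.28 in WT (adjusted p = 0.547).

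Of 11 heat shock factors fitted, 9 were called higher and 0 lower in each genotype, beside 16.9% of all genes higher in atcyp18-2 and 13.2% in WT, with medians of 3.61 in atcyp18-2 and 3.32 in WT. HSFA2, an inducible factor that prolongs the heat response, rose by 8.99 ± 0.27 in atcyp18-2 (adjusted p = 1.13e-10) and 9.497 ± 0.28 in WT (adjusted p = 7.31e-11). HSFA7B rose by 8.38 ± 0.37 in atcyp18-2 and 8.90 ± 0.36 in WT, and HSFA7A by 6.96 ± 0.24 in atcyp18-2 and 7.26 ± 0.24 in WT. HSFA1B, one of the factors present before heat that HSP90 holds inactive, was not called, at 0.23 ± 0.37 in atcyp18-2 (adjusted p = 0.682) and −0.02 ± 0.37 in WT (adjusted p = 0.982).

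Of 9 plastid chaperones, 5 were called higher and 3 lower in atcyp18-2, and 5 higher and 0 lower in WT, with medians of 1.01 in atcyp18-2 and 0.81 in WT. Over all genes, 16.9% were called higher and 15.3% lower in atcyp18-2, and 13.2% higher and 10.3% lower in WT. The disaggregase CLPB3 rose by 4.97 ± 0.32 in atcyp18-2 and 4.86 ± 0.32 in WT, the chaperonin subunit CPN60A by 1.64 ± 0.17 in atcyp18-2 and 1.44 ± 0.16 in WT, and the stromal cpHsc70-1 by 1.59 ± 0.15 in atcyp18-2 and 1.13 ± 0.14 in WT. Those called lower in atcyp18-2 were the import motor HSP93-V, the translocon protein TIC110 and the chaperonin subunit CPN60B. HSP93-III, a second import motor, was not called in atcyp18-2 (−0.35 ± 0.17, adjusted p = 0.144), and HSP93-V was not called in WT (−0.41 ± 0.21, adjusted p = 0.188).

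Of 6 mitochondrial chaperones, 4 were called higher and 0 lower in each genotype, where 16.9% of all genes were higher in atcyp18-2 and 13.2% in WT, with medians of 2.83 in atcyp18-2 and 2.62 in WT. mtHsc70-2 rose by 5.78 ± 0.23 in atcyp18-2 and 6.24 ± 0.24 in WT, CLPB4 by 6.02 ± 0.25 in atcyp18-2 and 5.39 ± 0.24 in WT, and HSP60 by 4.28 ± 0.25 in atcyp18-2 and 3.87 ± 0.24 in WT. mtHsc70-1 was not called, at 0.09 ± 0.17 in atcyp18-2 (adjusted p = 0.724) and 0.14 ± 0.17 in WT (adjusted p = 0.573).

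In the ER list, 11 of 12 genes were fitted, of which 4 were called higher in atcyp18-2 and 5 in WT, with 0 lower in either and medians of 0.33 in atcyp18-2 and 0.61 in WT. The share called higher over all genes was 16.9% in atcyp18-2 and 13.2% in WT. ERDJ3A, an HSP40-type partner of the ER HSP70, rose by 6.82 ± 0.36 in atcyp18-2 and 6.38 ± 0.35 in WT. The ER HSP70 BIP1 rose by 1.73 ± 0.21 in atcyp18-2 and 2.03 ± 0.21 in WT, and its near-identical copy BIP2, with which it may exchange reads, rose by 1.74 ± 0.21 in WT. SDF2 rose by 1.20 ± 0.27 in atcyp18-2 (adjusted p = 0.00454). The lectin chaperone CRT1A, like HSP90.7, was not called, at −0.10 ± 0.23 in atcyp18-2 (adjusted p = 0.786) and 0.04 ± 0.23 in WT (adjusted p = 0.928).

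Of 6 HSP90 client proteins, 1 was called higher in atcyp18-2 and 0 in WT, with 0 lower in either and medians of 0.58 in atcyp18-2 and 0.46 in WT. With 16.9% of all genes called higher in atcyp18-2 and 13.2% in WT, these counts were near the background. The one called was ZTL, a blue-light receptor of the circadian clock, at 0.97 ± 0.29 in atcyp18-2 (adjusted p = 0.0238). The auxin receptor TIR1 was not called, at 0.35 ± 0.26 in atcyp18-2 (adjusted p = 0.337) and 0.31 ± 0.26 in WT (adjusted p = 0.424). No gene of the co-chaperone, heat shock factor, organelle chaperone or client lists was called in atcyp18-2 against WT with or without heat, or in the difference of the heat response (edgeR).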

How the data were processed

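Total RNA of 12 leaf samples was sequenced on an Illumina protocol, per the labels' protocols. The submitters' processing notes name HTSeq and DESeq without a version. The sources used here do not give the genome build or the aligner. The deposited table holds whole-number counts per transcript, described as raw data per the file headers. The lowest count is 1, so 1 read appears to have been added to every value. Read numbers printed here have it subtracted, while CPM and the reads per kilobase behind the cytosolic shares include it. For each gene the annotated transcript with the highest total stood for the gene, since reads appear under every transcript of a gene. The design had assumed counts per gene, and these counts were used in their place. The authors' deposited lists hold 2 values per changed gene, its log2 fold change and its p-value after adjustment. The 12 columns of normalized values were not used.

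Counts of all 12 libraries were fitted together in edgeR 4.0.16 (R 4.3.3), with TMM scaling, filterByExpr and a coefficient per group, which left 16636 genes and 8 residual degrees of freedom. Calls needed a p below 0.05 after Benjamini-Hochberg adjustment. CPM are TMM-scaled. The steps were tested on simulated data. Libraries of a group differed by a chi-square of at least 2.69 per degree of freedom, so none was treated as a second deposit of another, which does not show that they are separate plants. The closest pair of each group lay at 2.69 to 7.14, and its pairs with the remaining library at 28.2 to 51.8. DESeq2 1.42.0, other scalings, filters and transcripts, a replicate block and leaving out each library were tried. All 7 HSP90 genes are named. Of each other list, up to 3 called genes with the largest change at a mean of at least 10 CPM are named, for each genotype separately. The uncalled gene of highest level is named too, and the plastid genes called lower were added after their values were seen. Likeness was Pearson's r of log2 CPM, with 3 genes taken per HSP90 gene. The HSP90 genes and the lists were chosen with earlier results of these data known. No source states whether counting used strand, so overlapping and antisense genes cannot be told apart.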

Additional observations from a re-analysis of the deposited data

How the results depend on the processing

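The calls of HSP90.1, HSP90.2, HSP90.3, HSP90.4 and HSP90.6 on heat held in both genotypes under every alternative and without any 1 library. None of these settings tested whether the rise of HSP90.4 holds reads of its near-identical copies. Library totals ended the WT call of HSP90.5 (0.48). Signs that turned were all of values not called in either setting. With library totals HSP90.7 was at −0.46 on heat in atcyp18-2 and −0.46 in WT, its difference of heat response was 0.00044, and HSP90.4 without heat was at −0.040 in atcyp18-2 against WT. HSP90.7 without heat was at 0.014 with the component term, and its difference of heat response was 0.023 without a filter. Leaving out 1 library, HSP90.7 on heat ran from −0.31 to 0.70 in atcyp18-2 and from −0.048 to 0.50 in WT, and its difference of heat response from −0.60 to 0.40. In atcyp18-2 against WT after heat, HSP90.1 ran from −0.15 to 0.41 and HSP90.2 from −0.14 to 0.0056. Without heat HSP90.1 ran from −0.0028 to 0.83 and HSP90.4 from −0.028 to 0.17. The difference of heat response of HSP90.1 ran from −0.62 to 0.21. The component term called 1 HSP90 gene in atcyp18-2 against WT after heat, in place of 0, and 7 on heat in WT. The causes were not tested.

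Deviations of same-numbered libraries correlated at −0.65 to 0.39, and no differently numbered pairs were computed beside them. Whether replicate numbers pair the samples therefore cannot be told from these values. The replicate block called 6 HSP90 genes on heat in each genotype and 0 in the other comparisons, and HSP90.7 was at 0.24 in atcyp18-2 and 0.37 in WT. Over all genes the block called 4502 on heat in atcyp18-2 and 3044 on heat in WT. In atcyp18-2 against WT it called 3 after heat and 1 without heat, and in the difference of heat response 0.

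Of all genes, 5358 were called on heat in atcyp18-2 (2812 higher, 2546 lower), 8419 with library totals (1010 higher, 7409 lower) and 8526 with the component term. In WT 3911 were called (2200 higher, 1711 lower), 8299 with library totals (799 higher, 7500 lower) and 7005 with the component term. For atcyp18-2 against WT after heat 37 were called, 197 by DESeq2, 6 with library totals, 24 without a filter, 1232 with the component term and 2 to 39 without 1 library. Without heat 4 were called, 21 by DESeq2, 0 with library totals, 7 without organelle genes, 68 with the component term and 0 to 10 without 1 library. For the difference of heat response 0 were called, with 912 at an unadjusted p below 0.05, 24 called by DESeq2 and 179 with the component term.

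Cytosolic shares moved with the length used. With the first annotated transcript, the share of HSP90.2 was 35.7% in heated WT, 49.4% in atcyp18-2 controls and 49.3% in WT controls. That of HSP90.3 was 43.0% in atcyp18-2 controls and 43.1% in WT controls, and that of HSP90.4 6.996% in atcyp18-2 controls and 7.17% in WT controls. With coding lengths, tried after seeing the data, HSP90.2 had 50.4% in atcyp18-2 controls and 50.3% in WT controls. HSP90.3 then had 18.1% in heated atcyp18-2 and 42.7% in its controls, and 21.0% in heated WT and 42.6% in its controls, and HSP90.4 1.12% in heated atcyp18-2 and 1.30% in heated WT. Few reads limit HSP90.1 without heat, at 8 to 23 per library. With the added read subtracted its heat response was 11.73 in atcyp18-2 and 11.80 in WT.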

Other observations

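The table holds 2 to 4 transcripts per HSP90 gene, and those of a gene had nearly the same counts. The first transcript of HSP90.2 had 98.7% to 99.9% of the reads of the second in each library. The 2 assembled transcripts at HSP90.1 had 101.3% and 103.7% of the reads of the annotated one over all libraries. Isoforms of the HSP90 genes are therefore not separated by these counts.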
